A study of Mus musculus with 26 samples.

Results

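The 37 interferon response genes described here are standard targets of type I and type II interferon, measured by RNA-seq in 26 libraries of mouse aorta. They were taken by symbol and matched through the GENCODE M21 annotation of mm10 to 37 of the 54532 gene rows of the count files. All 37 were found. All mice were male. Of the libraries, 16 came from untreated mice, in 4 groups of 4: ascending and descending aorta of wild-type (WT) littermates, and ascending and descending aorta of Fbn1 C1041G/+ mice, which carry 1 mutant allele of fibrillin-1 and are a model of Marfan syndrome. For the other 10, C1041G/+ mice had received antisense oligonucleotides and their ascending aorta was sampled, 5 with AGT-ASO, directed at angiotensinogen, and 5 with Control-ASO. The antisense groups therefore share the mutation and hold no WT arm. The labels used here give no age, strain background or dose, and do not say that each library of a group is a separate mouse, so p-values measure the spread between these libraries.

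Interferons are secreted proteins that cells release on sensing foreign or misplaced nucleic acid. Type I interferons bind IFNAR and act through a complex that holds STAT2 and IRF9 and recognises the interferon-stimulated response element, while interferon gamma, the type II interferon made mainly by lymphocytes, acts at GAS elements. The target genes overlap widely: the Ifit, Oas and Mx families are mostly known as type I targets, and the guanylate-binding proteins and the antigen processing genes respond strongly to interferon gamma.

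Promoter sequence was looked up because the members are defined by what controls them. RefSeq promoter windows on GRCm38.p6, running from 250 bases before to 50 bases after a start site, were found for 28 of the 37 members. The core of the interferon-stimulated response element was searched on both strands as GAAA, any 2 bases and GAAA again. It was present in a window of 15 of the 28 members and of 3.99% of all 27025 genes in the table, and in 3.44% of all 32851 windows of the same length. The core of the GAS element, TTCNNNGAA, was present in a window of 8 of the 28 members and of 9.55% of all genes, and in 8.3% of all windows. Matches of 1 motif may overlap each other, and the motifs may share bases. The windows that hold matches are shown for the genes on which the results below turn, each gene's own strand written 5′ to 3′, with this GAAA repeat or its reverse complement in capitals and 15 bases on each side.
Ifit1, chr19:34640770-34640828, plus strand: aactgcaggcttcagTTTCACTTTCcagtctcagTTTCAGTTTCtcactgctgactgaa
Isg15, chr4:156200860-156200911, minus strand: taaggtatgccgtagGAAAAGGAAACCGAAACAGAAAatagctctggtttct
Ifit3, chr19:34583358-34583431, plus strand: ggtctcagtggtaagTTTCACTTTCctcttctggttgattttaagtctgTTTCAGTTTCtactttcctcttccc
Ifit3b, chr19:34607754-34607827, plus strand: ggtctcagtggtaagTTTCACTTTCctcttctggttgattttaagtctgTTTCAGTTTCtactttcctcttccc
Gbp2, chr3:142620589-142620628, plus strand: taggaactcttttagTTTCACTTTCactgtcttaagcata
Gbp3, chr3:142559984-142560029, plus strand: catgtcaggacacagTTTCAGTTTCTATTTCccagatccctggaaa
Gbp5, chr3:142496754-142496793, plus strand: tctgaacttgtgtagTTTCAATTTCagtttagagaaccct
Gbp7, chr3:142530268-142530307, plus strand: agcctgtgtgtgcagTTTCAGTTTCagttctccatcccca

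The stretch of Ifit1 holds 2 matches, the first base of which lies 104 bases and the last 76 bases before the RefSeq start site. That of Isg15 holds 3 overlapping matches. The stretches of Ifit3 and Ifit3b, neighbouring genes on chromosome 19, were equal at 74 of 74 bases. In GENCODE M21 no stretch lay in an exon except that of Gbp2, with 27 bases in its first exon, and that of Gbp3, with 4. The stretch of Gbp5 begins inside the GENCODE gene, upstream of a later RefSeq start site. The windows of Irf7 and Oasl2 held no match to these letters, and Usp18 had no entry.

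Library totals ranged from 17171652 to 28554356 counts. Summed smooth muscle markers (10 genes, among them Myh11 and Acta2) reached 18154 to 31959 CPM (counts scaled to a common library total) in all 26 libraries, with no marker at 0. Summed endothelial markers were 1446 to 3464 CPM in the untreated libraries and 255 to 495 CPM in the antisense libraries. Marker sums for lymphocytes (52.8 CPM) and thymus (128 CPM) were highest in ascending C1041G/+ library 2. In bulk tissue, fewer cells of a type and less RNA per cell cannot be told apart. The sources used here name neither the counting tool nor its strand setting, so members that share exon bases with a gene on the other strand (Irf7 with Phrf1, Psmb9 with Tap1, Usp18 with Gm44148) and near-identical neighbours (Ifit3 and Ifit3b, the Oas and Gbp families) carry added uncertainty.

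Levels were compared between genes per length, as CPM divided by kilobases of exon (RPKM), averaged over the 26 libraries. Ifi27, a small mitochondrial protein gene, stood highest at 117 RPKM, followed by Bst2, encoding the virus tether tetherin, at 45.4 RPKM and Gbp2, a guanylate-binding GTPase, at 21.9 RPKM. The lowest were Mx1 at 0.331 RPKM, Oasl1 at 0.232 RPKM and Oas3 at 0.0815 RPKM. In CPM, Ifi27 spanned 125 to 208 over all libraries, Bst2 25.3 to 57.1 and Gbp2 38.1 to 136. The highest members by CPM were Ifi27, Gbp2 and Bst2. Spread between libraries of 1 group differed among members: the median coefficient of variation over the 6 groups was 9.26% for Ifi27 and 10.2% for Stat2, a signalling subunit of the type I pathway, but 64.8% for Mx1, an antiviral dynamin-like GTPase, and 57.0% for Zbp1, a sensor of Z-form nucleic acid. The group in which a member varied most was Control-ASO for 21 of the 37 members and descending C1041G/+ for 9.

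**Figure D1:**
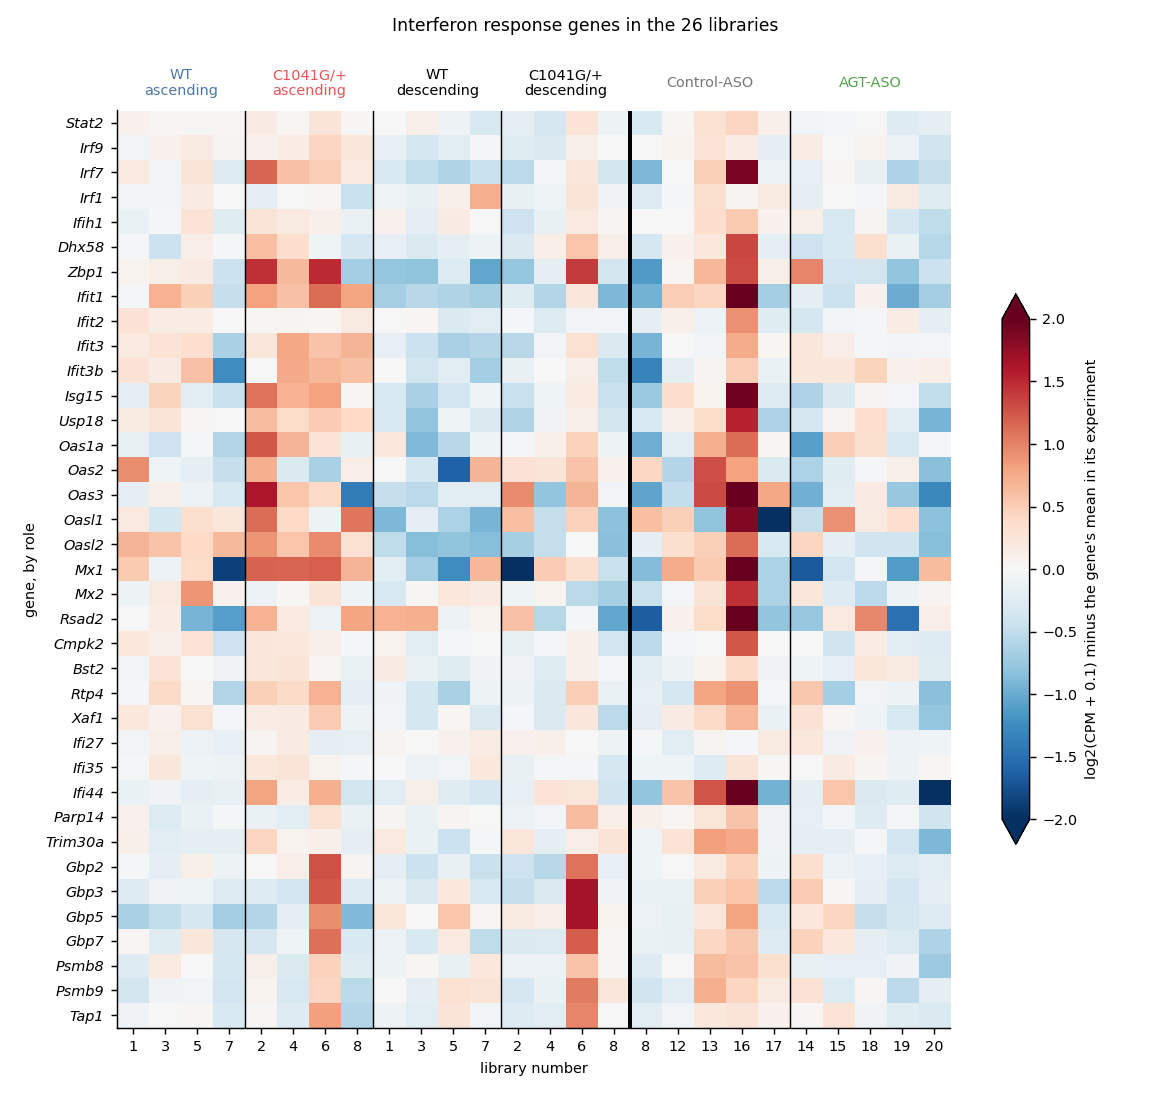
Each row is a member, ordered by role, and each column a library, by group. Colour gives log2(CPM + 0.1) minus the gene's mean within its experiment; the thick line parts the untreated from the antisense libraries. Control-ASO library 16 is high across most rows, and both libraries numbered 6 are high in the guanylate-binding protein rows.

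The first comparison was between the ascending and the descending aorta within a genotype. Oasl2, an Oas-like ubiquitin-domain protein gene, and Ifit1, which binds viral RNA caps, were higher in the ascending aorta in both genotypes. In C1041G/+ mice 4 more members were higher there: Irf7, the transcription factor that amplifies type I interferon, Isg15, a ubiquitin-like modifier, Usp18, the protease that removes it, and Ifit3, a partner of Ifit1. Thus 2 of 37 members (5.41%) were called in WT and 6 of 37 (16.2%) in C1041G/+ aorta by edgeR's quasi-likelihood test at a Benjamini-Hochberg adjusted p of 0.05, all of them higher in the ascending aorta. Among all 15645 genes tested, 11.1% were called in WT and 9.92% in C1041G/+ aorta, and 7.82% and 6.41% were called as higher. The members' share was thus under the background in WT and above it in C1041G/+ aorta. Whether the list as a whole differed was not tested. The median log2 fold change was 0.11 over the members in WT and 0.32 in C1041G/+ aorta, against -0.01 for all tested genes in each. Leaving out 1 library moved the WT median between 0.05 (without ascending library 5) and 0.24 (without ascending library 7; 0.20 without descending library 1), and the C1041G/+ median between 0.21 (without ascending library 2) and 0.40.

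Oasl2 read 25.7, 23.8, 20.95 and 25.1 CPM in WT ascending libraries 1, 3, 5 and 7, and 11.2, 8.79, 9.09 and 8.80 CPM in the descending libraries of the same numbers. In C1041G/+ aorta it read 29.4, 23.4, 30.8 and 19.7 CPM in ascending libraries 2, 4, 6 and 8 and 10.01, 11.4, 15.7 and 8.87 CPM in the descending ones. Every ascending library lay above every descending library of its genotype. The log2 fold change of Oasl2 was 1.34 ± 0.17 (SE) in WT, with an edgeR adjusted p of 1.9e-05, and 1.17 ± 0.17 in C1041G/+, with an adjusted p of 8.7e-05. Both calls held under all alternatives tried, 14 for WT and 16 for C1041G/+.

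Ifit1 read 7.10, 11.9, 10.2 and 5.27 CPM in the WT ascending libraries and 4.57 to 4.93 CPM in the descending ones. In C1041G/+ aorta its ascending libraries read 12.8, 11.04, 15.99 and 12.7 CPM and its descending libraries 6.13, 4.82, 8.60 and 3.85 CPM. The regions did not overlap in either genotype, although WT ascending library 7 lay close to the descending range. Its log2 fold change was 0.87 ± 0.25 (adjusted p = 0.026, edgeR) in WT and 1.17 ± 0.24 (adjusted p = 0.0032, edgeR) in C1041G/+ aorta. The WT call was lost in 6 of 14 alternatives, each leaving out 1 library, with adjusted p of 0.0051 to 0.097 over the 14. The C1041G/+ call held in all 16.

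Irf7 read 17.8, 11.97, 11.2 and 9.11 CPM in C1041G/+ ascending libraries 2, 4, 6 and 8 and 5.45, 7.71, 9.34 and 6.14 CPM in the descending ones. Library 2 was the highest ascending library, and the regions overlapped by a single pair of libraries. Its log2 fold change was 0.81 ± 0.20 (adjusted p = 0.013, edgeR), and 0.51 ± 0.20 in WT (adjusted p = 0.14).

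Isg15 followed with 12.2, 9.30, 9.99 and 5.86 CPM in the C1041G/+ ascending and 4.16, 5.38, 6.57 and 4.14 CPM in the descending libraries. Ascending library 8 lay inside the descending range. The log2 fold change was 0.88 ± 0.23 (adjusted p = 0.020, edgeR). In WT aorta it was 0.28 ± 0.24 (adjusted p = 0.59).

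Usp18 was low in every library, at 3.97 to 4.70 CPM in C1041G/+ ascending and 1.97 to 3.31 CPM in descending libraries, with no overlap. Its log2 fold change was 0.70 ± 0.19 (adjusted p = 0.026, edgeR). Ifit3 read 25.3, 36.8, 31.9 and 34.4 CPM in the ascending and 14.6, 20.7, 26.7 and 17.6 CPM in the descending libraries, where the descending library of number 6 lay above ascending library 2. Its log2 fold change was 0.69 ± 0.21 (adjusted p = 0.044, edgeR).

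The C1041G/+ calls outside Oasl2 and Ifit1 were each lost in some alternatives. Without both libraries of mouse 2, a choice made after the values were seen, 2 members were called, Ifit1 and Oasl2. Irf7 was lost in 2 of 16 alternatives, Isg15 in 4, Usp18 in 7 and Ifit3 in 8. For Usp18 these included the fit with no count filter and that on the compared groups alone. Ifit3 was lost with no count filter and in 6 fits that each left out 1 library. Library 2 was its lowest ascending library, at 25.3 CPM. Ascending library 2 had the highest summed thymus (128 CPM against 6.91 to 17.3 CPM in the other 3) and lymphocyte markers (52.8 CPM against 5.06 to 14.3 CPM) of its group, and the part of these in the result was not tested.

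Same-numbered ascending and descending libraries were taken to come from 1 mouse, and a fit with the mouse as a replicate block raised the calls to 7 in WT (15.5% of all genes) and 10 in C1041G/+ aorta (14.8% of all genes). In both genotypes the added members included Irf9, the DNA-binding partner of STAT2, Gbp2 and Gbp5. The others added were Ifit2 (adjusted p = 0.025) and Ifit3 (adjusted p = 0.046) in WT and Ifit3b (adjusted p = 0.044) in C1041G/+ aorta. Gbp5, which promotes inflammasome assembly, was the 1 called member that was lower in the ascending aorta: its blocked log2 fold change was -0.75 ± 0.12 in WT (adjusted p = 3.6e-04) and -0.69 ± 0.11 in C1041G/+ aorta (adjusted p = 6.8e-04). Without the block it was -0.76 ± 0.40 (adjusted p = 0.32) and -0.70 ± 0.40 (adjusted p = 0.37). Gbp5 read 7.71 to 9.84 CPM in WT ascending and 12.4 to 18.2 CPM in WT descending libraries, with no overlap. Taken mouse by mouse, 10 members were higher in the ascending library of all 4 WT mice, where 16.2% of all genes were, and 13 in all 4 C1041G/+ mice, where 18.8% were. Irf9, Irf7, Ifit1, Ifit2, Usp18, Oasl2, Xaf1 and Gbp2 were higher in all 8 mice, and Gbp5 was lower in all 8. The share of all genes that went 1 way in all 8 mice was not counted, so no excess can be read from these.

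**Figure D2:**
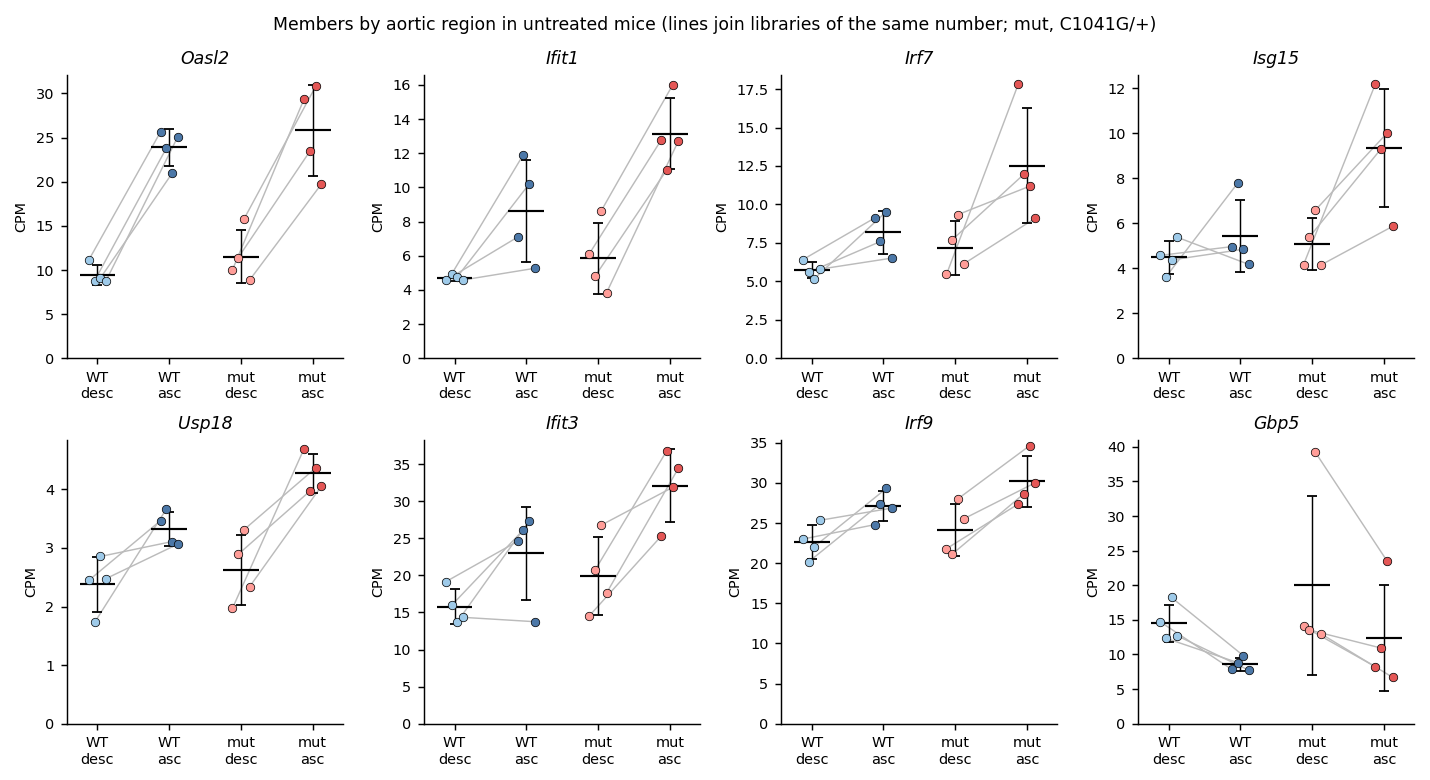
CPM of 8 members in the descending (desc) and ascending (asc) aorta of WT and C1041G/+ (mut) mice. Points are libraries, bars the mean ± SD of 4, and grey lines join libraries of the same number; Oasl2 and Ifit1 do not overlap between regions in either genotype, and Gbp5 runs the other way in all 8 mice.

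Without the block, other members did not pass the test by region. Ifit2, with the third smallest p in WT, read 42.8 ± 3.66 CPM (SD, n = 4) in ascending and 35.8 ± 4.06 CPM in descending aorta (log2 fold change 0.26 ± 0.09, adjusted p = 0.076, edgeR, and 0.025 with the block). The sensors Ifih1, Dhx58 and Zbp1, the antigen processing genes Psmb8, Psmb9 and Tap1, and all 12 other antiviral effectors, from Mx1 to Trim30a, gave no call in either genotype. Libraries of the regions did not overlap, with the ascending higher, for 4 members in WT (9.19% of all genes) and 6 in C1041G/+ aorta (8.55% of all genes).

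The regions also differed in the markers of other cell types. Summed mesothelial markers were 295 to 588 CPM in ascending and 5.71 to 24.3 CPM in descending libraries, with 8 of 8 called as higher in each genotype. Heart muscle markers summed to 289 to 1162 CPM against 74.3 to 248 CPM, with 9 of 11 called in WT and 7 in C1041G/+ aorta. Dendritic cell markers summed to 36.9 to 52.9 CPM against 31.4 to 35.8 CPM. Endothelial markers summed to 1446 to 2214 CPM in ascending and 2218 to 3464 CPM in descending libraries. Of these 10 markers, 2 were called higher and 6 lower in the ascending aorta in WT. In C1041G/+ aorta 2 were called higher and 1 lower. No marker of these lists was at 0 in any of the 4 groups. The part of these tissues in the region result was not tested.

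Whether the region difference itself differed between genotypes was asked by an interaction term. No member passed (0 of 37, against 0.00639% of all genes), and 1 had an unadjusted p under 0.05 (5.08% of all genes). That was Rsad2, which encodes the antiviral enzyme viperin, with an interaction of 1.37 ± 0.51 on the log2 scale (adjusted p = 0.76, edgeR). Rsad2 read 2.22 ± 0.98 CPM ascending and 3.81 ± 1.10 CPM descending in WT, and 3.95 ± 1.14 CPM ascending and 2.63 ± 1.32 CPM descending in C1041G/+ mice. The next were Ifi35, with 0.27 ± 0.14, and Isg15, with 0.60 ± 0.33 (adjusted p = 0.98 and 0.99). The 4 members called by region in C1041G/+ alone are thus not shown to differ in their region effect from WT.

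The second comparison was C1041G/+ against WT within a region. In the ascending aorta no member passed edgeR's quasi-likelihood test (0 of 37), where 2.19% of all tested genes did, and 8 members had an unadjusted p under 0.05 (21.6% of members, 16.2% of all genes). The log2 fold change lay above 0 for 33 of 37 members (48% of all genes), with a median of 0.27 against -0.01 for all genes. Without mouse 6, a choice made after the values were seen, 27 of 37 lay above 0 with a median of 0.11, which was also the median without ascending library 6 alone. Isg15 came nearest to a call: it read 4.17 to 7.77 CPM in WT and 5.86 to 12.2 CPM in C1041G/+ ascending aorta, with a log2 fold change of 0.78 ± 0.23 and an adjusted p of 0.093. DESeq2 called it with an adjusted p of 0.032 (4.98% of all genes called), and edgeR called it when WT library 3 or C1041G/+ library 8 was left out. Over all alternatives its adjusted p ran from 0.032 to 0.31.

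Irf7 read 6.52 to 9.53 CPM in WT and 9.11 to 17.8 CPM in C1041G/+ ascending libraries, which overlapped (log2 fold change 0.62 ± 0.20, adjusted p = 0.12, edgeR). Oas1a, an enzyme that makes the RNase L activator oligoadenylate, read 1.82 to 2.75 CPM against 2.50 to 6.71 CPM (0.91 ± 0.29, adjusted p = 0.12). Without C1041G/+ ascending library 2, the highest for both genes, the log2 fold change came to 0.39 for Irf7 and 0.60 for Oas1a. The groups did not overlap for 2 members, Mx1 and Usp18, where 4.92% of all genes were higher without overlap. Mx1 read 0.192 to 1.44 CPM in WT and 1.60 to 2.35 CPM in C1041G/+ ascending aorta (1.18 ± 0.54, adjusted p = 0.29). Summed macrophage markers did not overlap either, at 856 to 989.6 CPM in WT and 1117 to 1422 CPM in C1041G/+ ascending libraries, though none of the 12 markers was called. Their part in these values was not tested.

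In the descending aorta 0 of 37 members passed the test, where 1.21% of all genes did, and 0 had an unadjusted p under 0.05 (10.8% of all genes). DESeq2 called none of the 37 there either, and 2.65% of all genes. The 3 smallest p belonged to Zbp1, Oasl1 and Oasl2. Zbp1 read 1.16 to 2.04 CPM in WT and 1.41, 2.15, 6.73 and 1.90 CPM in C1041G/+ descending libraries 2, 4, 6 and 8, and its log2 fold change of 1.03 ± 0.50 (adjusted p = 0.48, edgeR) came to 0.29 without mouse 6. Oasl1 had 0.82 ± 0.45 (adjusted p = 0.56) and Oasl2 0.28 ± 0.17 (adjusted p = 0.62). The median over members was 0.20 with all libraries and -0.0013 without mouse 6, a choice made after the values were seen; members above 0 numbered 30 and 18, and 49.8% of all genes lay above 0 with all libraries.

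Descending library 6 was the highest of its group for 28 of 37 members, and for 26.3% of all genes tested. The median ratio of the members to the mean of the other 3 libraries was 1.14 in ascending library 6 and 1.44 in descending library 6. The guanylate-binding proteins, GTPases that attack the membranes around intracellular pathogens, had the largest ratios in both libraries, joined by Zbp1 in the descending one. Gbp2 read 136 CPM in ascending library 6 and 56.9 to 61.8 CPM in the other 3 C1041G/+ ascending libraries, and 120.0 CPM in descending library 6 against 38.5 to 50.2 CPM. Gbp3 read 52.8 CPM against 17.1 to 18.6 CPM and 70.3 CPM against 16.02 to 21.1 CPM. Gbp5 read 23.6 CPM against 6.71 to 10.9 CPM and 39.3 CPM against 13.01 to 14.1 CPM. Gbp7 read 56.5 CPM against 20.9 to 24.8 CPM and 61.2 CPM against 21.5 to 26.8 CPM. All 4 were over 2 times every other library of the group in both regions, the only members that were, where 0.543% of all tested genes were so in ascending library 6 and 0.837% in descending library 6. The promoter stretches shown above were cut around matches to the GAAA repeat, so they hold it by construction. A GAS core lay in the windows of Gbp5 and Gbp7 but not in those of Gbp2 and Gbp3. The part of either motif in these values was not tested.

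The antigen processing members were the highest of their group in both libraries of mouse 6 too. Tap1, a subunit of the peptide transporter that loads MHC class I, read 25.7 CPM against 9.66 to 14.8 CPM in ascending and 28.7 CPM against 12.1 to 14.7 CPM in descending aorta. The immunoproteasome subunits read 22.3 and 24.1 CPM for Psmb8 and 14.1 and 21.6 CPM for Psmb9. Zbp1, at 6.73 CPM in descending library 6, was over 2 times the others there, but in ascending aorta library 2 (7.05 CPM) lay beside library 6 (7.15 CPM). Among Ifit, Isg15 and Usp18, ascending library 6 was the highest for 1 of 6 (Ifit1) and among the Oas members for 1 of 5 (Oasl2), while descending library 6 was the highest for 5 of 6 and 3 of 5. None of them was over 2 times every other library there: Ifit3 read 26.7 CPM in descending library 6 against 14.6 to 20.7 CPM, and Oasl2 15.7 CPM against 8.87 to 11.4 CPM.

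Among 126 other genes of the interferon pathway, 10 were over 2 times every other C1041G/+ library in both regions of mouse 6: Cd274, which encodes the checkpoint ligand PD-L1, Gbp4, Gbp6, Ifng, the immunity-related GTPases Igtp, Iigp1, Irgm2, Tgtp1 and Tgtp2, and Nlrc5, the activator of MHC class I genes. Igtp read 65.9 CPM against 12.4 to 17.8 CPM in ascending and 63.1 CPM against 14.8 to 15.7 CPM in descending aorta. Iigp1 read 80.3 CPM against 19.6 to 20.998 CPM and 88.7 CPM against 21.6 to 23.01 CPM. Ifng, the gene of interferon gamma itself, had 3 counts in ascending and 5 in descending library 6 and 0 counts in each of the other 24 libraries. Counts this few fix no level. Summed lymphocyte markers in mouse 6 were 14.3 and 11.7 CPM, inside the range of the other C1041G/+ libraries (5.06 to 52.8 CPM). These genes were picked out after their values were seen.

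**Figure D3:**
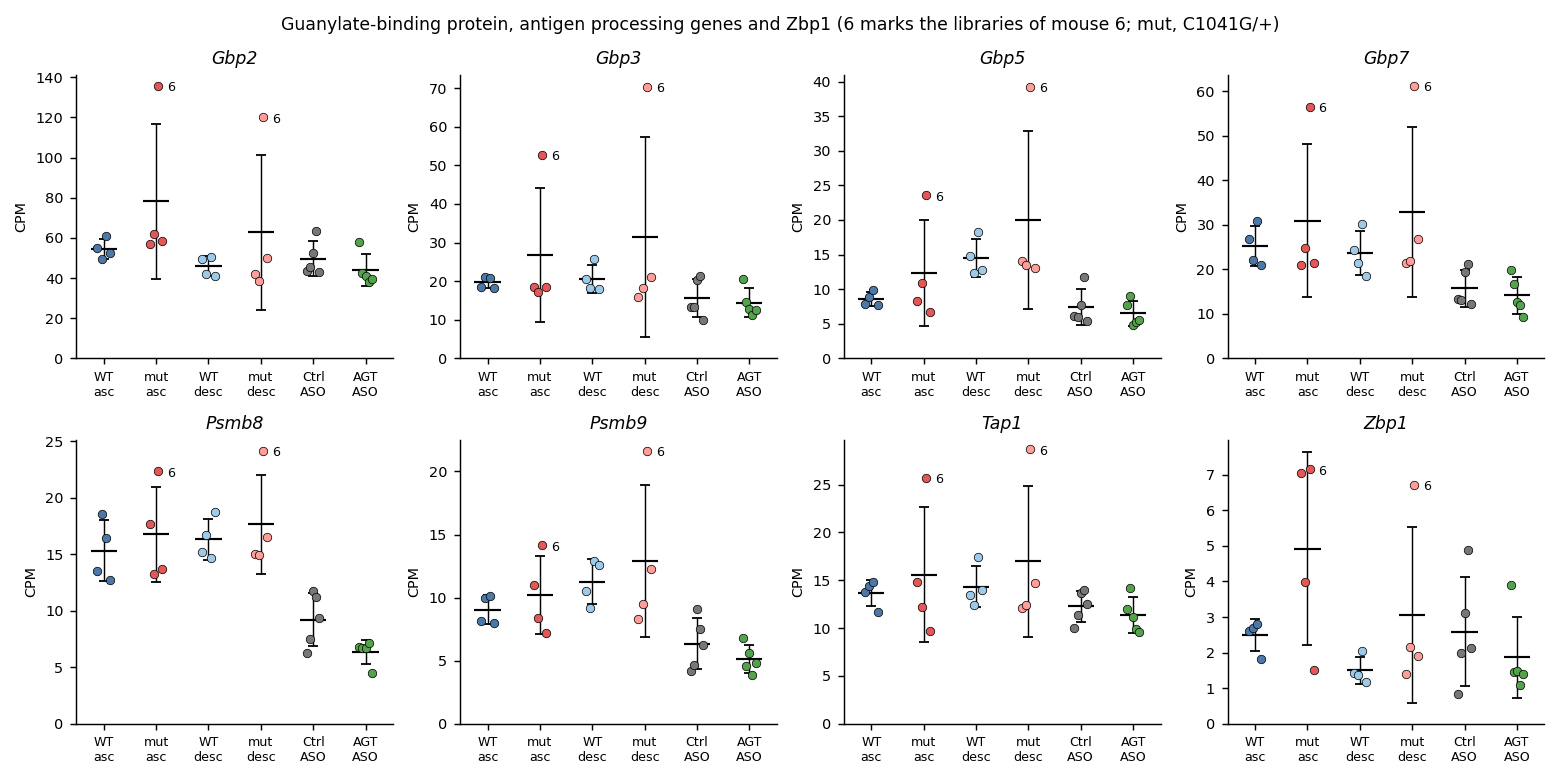
CPM of the guanylate-binding proteins, antigen processing genes and Zbp1 in the 6 groups; points are libraries, bars the mean ± SD, and 6 marks the libraries of mouse 6. Both marked points stand above their groups for Gbp2, Gbp3, Gbp5 and Gbp7, and the remaining C1041G/+ libraries lie with the WT libraries.

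Leaving out mouse 6 moved the fold changes of this role. Over genotype in the ascending aorta, Gbp3 went from 0.44 to -0.13, Gbp7 from 0.29 to -0.17, Gbp5 from 0.52 to 0.01 and Gbp2 from 0.52 to 0.11 on the log2 scale. In the descending aorta all 4 lay at 0.45 to 0.61 with mouse 6 and at -0.15 to -0.01 without it. None of these values passed the test either way. The ascending differences were 0.62 and 0.67 for Irf7 and 0.78 and 0.74 for Isg15, with and without mouse 6.

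The third comparison was AGT-ASO against Control-ASO in the ascending aorta of C1041G/+ mice. No member passed the test (0 of 36, against 0.0668% of all 14981 genes), 5 had an unadjusted p under 0.05 (12.7% of all genes) and DESeq2 called 0 of the members (2.01% of all genes). The log2 fold change lay below 0 for 32 of 36 members (51.5% of all genes), with a median of -0.38 against -0.01 for all genes. Oas3 was removed by the count filter: its libraries held 1 to 6 counts with AGT-ASO and 2, 4, 15, 59 and 11 counts in Control-ASO libraries 8, 12, 13, 16 and 17. The smallest p belonged to Trim30a, an interferon-induced regulator of toll-like receptor signalling, which read 3.99 to 7.37 CPM under AGT-ASO against 7.14 to 13.3 CPM under Control-ASO (log2 fold change -0.71 ± 0.21, adjusted p = 0.20, edgeR). With no count filter it passed, at -0.70 and an adjusted p of 0.043. Its adjusted p ran from 0.043 to 0.42 over the alternatives.

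Parp14, a mono-ADP-ribosyltransferase, read 16.01 ± 1.71 CPM under AGT-ASO against 20.7 ± 3.76 CPM under Control-ASO (SD, n = 5; -0.37 ± 0.12, adjusted p = 0.24, edgeR). Psmb8 read 6.36 ± 1.06 CPM and 9.21 ± 2.35 CPM (-0.53 ± 0.19, adjusted p = 0.27). The groups overlapped for all 36 members, where 2.46% of all genes were without overlap. Summed heart muscle markers did not overlap, at 331 to 746 CPM under AGT-ASO against 749 to 1624 CPM under Control-ASO, and their part in these values was not tested.

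Control-ASO library 16 stood apart in members of the Ifit, Oas and Mx families and in others. Ifit1 read 62.5 CPM there and 4.19, 11.6, 11.1 and 5.09 CPM in Control-ASO libraries 8, 12, 13 and 17, with 4.08 to 8.73 CPM in the AGT-ASO libraries. Irf7 read 31.7 CPM against 4.48 to 11.9 CPM, and Isg15 13.5 CPM against 2.03 to 4.43 CPM. Rsad2 read 9.37 CPM against 0.291 to 1.48 CPM. In all, 12 of 37 members were over 2 times every other Control-ASO library: Cmpk2, Dhx58, Ifi44, Ifit1, Irf7, Isg15, Mx1, Mx2, Oas3, Oasl1, Rsad2 and Usp18. Of all tested genes 0.474% were. Outside the members, the chemokine gene Cxcl10 read 21.6 CPM there and at most 1.33 CPM in the other Control-ASO libraries.

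The guanylate-binding proteins were not among the 12: Gbp2 read 63.6 CPM in library 16 and 42.9 to 52.4 CPM in the other Control-ASO libraries, and Gbp5 11.7 CPM against 5.34 to 7.77 CPM. None of the 12 was over 2 times the other libraries in either sample of mouse 6. Of the other 126 pathway genes, 6 were so in library 16: Cxcl10, Cxcl9, Gbp6, Ifnk, Ms4a4c and Tgtp2. Ifnk rested on 1 count there. Gbp6 and Tgtp2 were so in mouse 6 as well. Marker sums of library 16 for lymphocytes (3.79 CPM), macrophages (394 CPM) and neutrophils (1.04 CPM) lay at or below the median of its group, and dendritic cell markers (46.7 CPM) at the median. Its thymus sum (1.36 CPM) was the lowest of the group and its endothelial sum (478 CPM) the highest. Heart muscle markers (1397 CPM) lay above the median of 1260 CPM. Library 16 also had the most counts of all libraries (28554356) but the fewest genes with a count, 19903. The other Control-ASO libraries had 20788 to 21746 such genes. The part of these in its values was not tested.

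**Figure D4:**
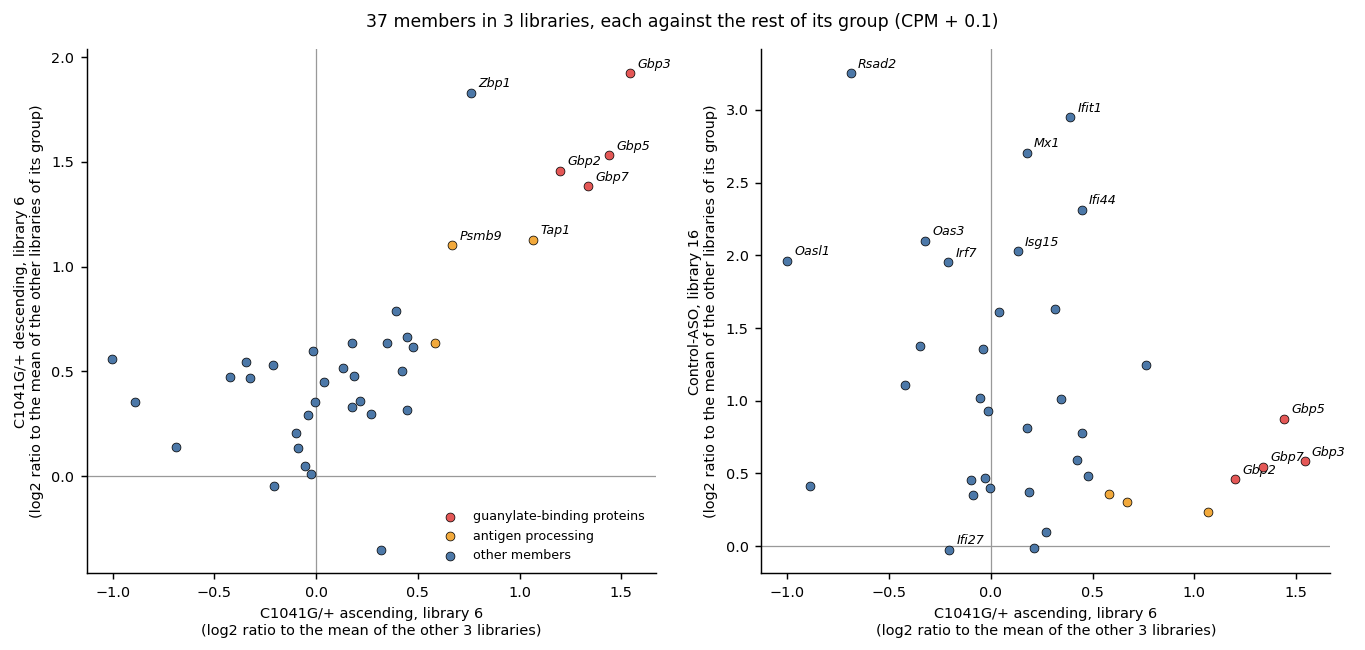
Each point is a member, placed by its log2 ratio to the mean of the other libraries of its group: horizontally in C1041G/+ ascending library 6, vertically in descending library 6 (left) or Control-ASO library 16 (right). The guanylate-binding proteins are high in both libraries numbered 6, while the members highest in library 16, such as Rsad2 and Ifit1, are not over 2 times the others in ascending library 6.

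Without Control-ASO library 16 the median log2 fold change of the members for AGT-ASO was -0.10, with 25 of 35 below 0, and the smallest adjusted p was 0.39. Ifit1 went from -1.62 to -0.37, Mx1 from -1.65 to -0.47, Irf7 from -0.87 to -0.19 and Rsad2 from -1.20 to 0.37. Trim30a (-0.71 and -0.60) and Psmb8 (-0.53 and -0.45) kept most of their size, and none of these passed the test.

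**Figure D5:**
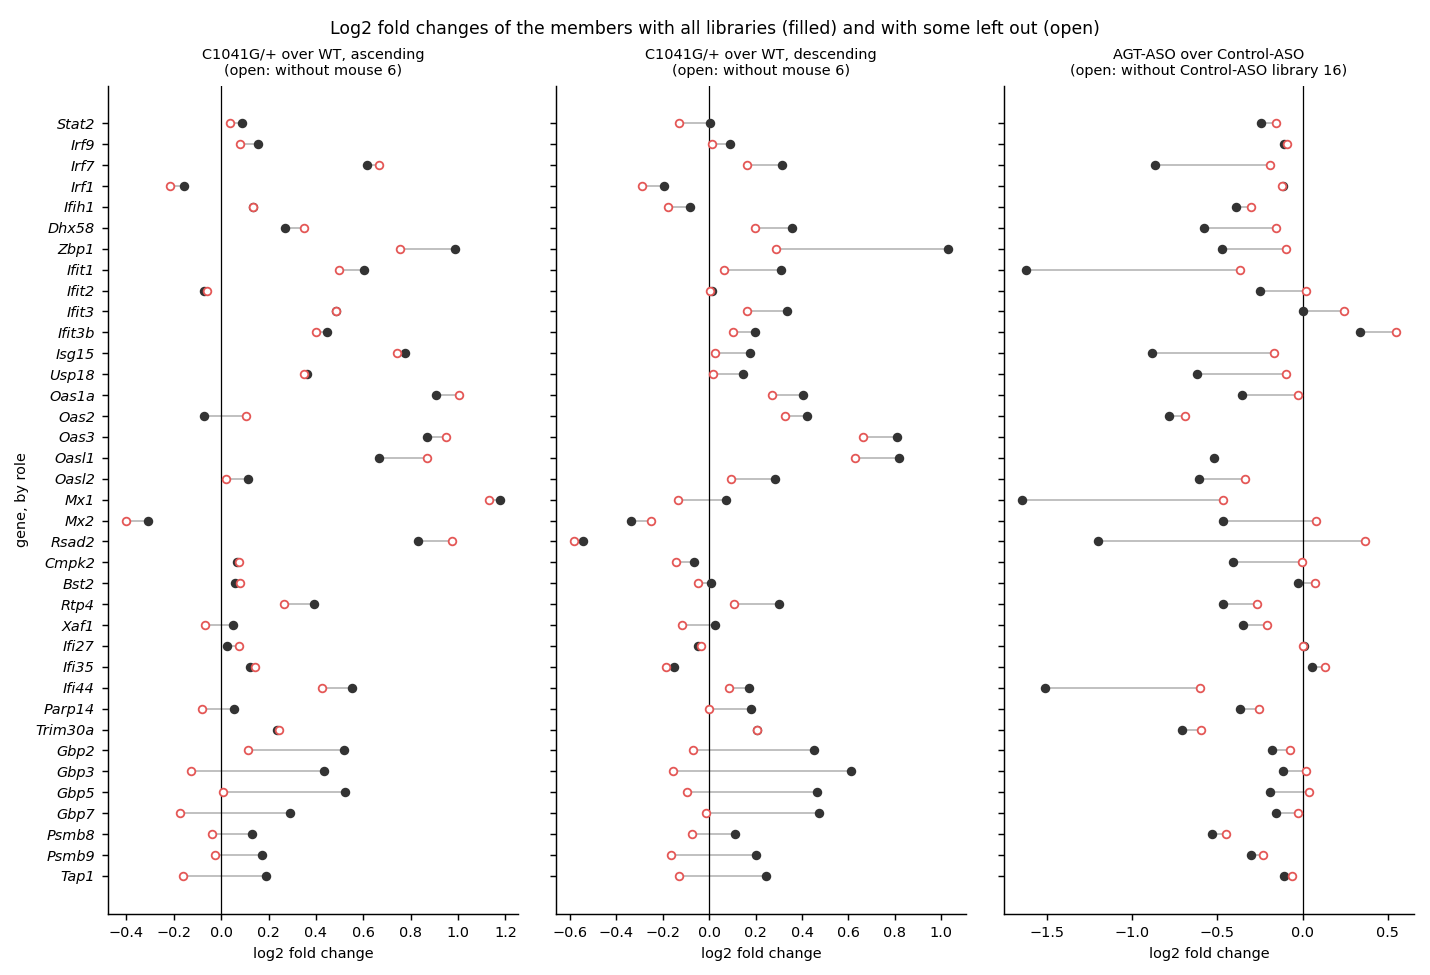
Log2 fold changes of the members for C1041G/+ over WT in each region and for AGT-ASO over Control-ASO, with all libraries (filled) and without mouse 6 or Control-ASO library 16 (open). In the descending aorta the guanylate-binding proteins and Zbp1 move toward 0; with AGT-ASO, Ifit1, Mx1, Rsad2 and Irf7 do.

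Untreated C1041G/+ ascending libraries and Control-ASO libraries share genotype and region but come from separate experiments, so treatment and experiment cannot be told apart, and no test was made. On a scale common to all 26 libraries, the ratio of Control-ASO to untreated means had a median of 0.82 over the 37 members, or 0.63 without library 16, and of 0.998 over the 14743 genes tested in both experiments. For Bst2, Parp14, Trim30a and Psmb8 every Control-ASO library lay below every untreated library, and for 0 members did all lie above; of all these genes 14.2% lay below and 12.5% above in this way, so 4 of 37 is no larger a share than the background. Ifit3 and Ifit3b went the other way, at 56.1 and 18.3 CPM on average with Control-ASO and 31.7 and 8.16 CPM untreated, with Control-ASO library 8 (28.0 and 7.64 CPM on its own experiment's scale) inside the untreated range.

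The other genes of the pathway, 126 in 7 lists, held 104 that could be tested in the untreated libraries and 99 in the antisense libraries. Of the 20 interferon genes themselves none could be tested: 15 had 0 counts in every library, where a count of 0 allows up to 3 counts, and the other 5 had at most 6 counts in a library. Of the 6 receptor genes, Ifngr2, a chain of the interferon gamma receptor, was higher in C1041G/+ ascending aorta, at 129 to 151 CPM against 92.6 to 116 CPM in WT (0.43 ± 0.10, adjusted p = 0.022, edgeR), a call lost in 6 of 17 alternatives; 1.18% of all genes were called higher there. By region, Ifnar2, a chain of the type I receptor, was higher in the ascending than in the descending aorta of C1041G/+ mice (41.1 against 27.3 CPM, 0.59 ± 0.12, adjusted p = 0.0021, edgeR). Il10rb, shared by interferon lambda and interleukin 10 receptors, was higher in the ascending aorta in both genotypes (0.34 ± 0.09 in WT, lost in 3 of 14 alternatives, and 0.39 ± 0.09 in C1041G/+). Of 11 JAK-STAT genes 1 was called, Ptpn2, a phosphatase that dampens JAK-STAT signalling, which was higher in C1041G/+ ascending aorta, at 39.4 to 44.8 CPM against 31.9 to 32.4 CPM in WT (0.36 ± 0.07, adjusted p = 0.0074) and kept its call in all 17 alternatives.

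Of 18 tested sensing genes, Irf5 was higher in the ascending aorta in WT (1.16 ± 0.18, adjusted p = 2.1e-04, edgeR) and in C1041G/+ mice (0.96 ± 0.18, adjusted p = 0.0013). Adar and Tlr3 were called higher in WT only, each lost in 9 of 14 alternatives. Thus 3 of 18 sensing genes were called higher in WT and 1 in C1041G/+ aorta, where 7.82% and 6.41% of all genes were. Of 6 further interferon regulatory factors and partners, Irf8, a factor of myeloid and dendritic cells, was higher in the ascending aorta in both genotypes (1.34 ± 0.19 and 1.28 ± 0.18). Of 48 further interferon targets tested, 1 was called by genotype in the descending aorta: Slfn5 was higher in C1041G/+ mice, at 104 to 127 CPM against 58.4 to 85.6 CPM in WT (0.63 ± 0.12, adjusted p = 0.012; 0.678% of all genes were called higher), a call lost without mouse 6. By region 2 of 48 were higher in each genotype, where 7.82% and 6.41% of all genes were: Phf11d (0.53 ± 0.11 and 0.54 ± 0.10), whose calls held in all alternatives, and Lgals3bp (0.74 ± 0.20 and 0.70 ± 0.20), whose calls were lost in 6 of 14 in WT and 9 of 16 in C1041G/+ aorta. Slfn5 was lower in the ascending than in the descending aorta of C1041G/+ mice (-0.47 ± 0.12), a call lost in 3 of 16, among them without mouse 6. Of 15 MHC class I genes, H2-Q4 (-0.66 ± 0.18 and -0.63 ± 0.18) and H2-Q6 (-1.36 ± 0.37 and -1.40 ± 0.37) were lower in the ascending aorta in both genotypes. Of all genes, 3.31% and 3.51% were called lower there. Both belong to the H2-Q family, whose reads may be shared. Each gene lost its call in 6 of 14 alternatives in WT and 8 of 16 in C1041G/+ aorta. With AGT-ASO edgeR called 0 of the 99 pathway genes, where 0.0668% of all genes were called. Of the 99, 27 had an unadjusted p under 0.05, where 12.7% of all genes did. DESeq2, which called 2.01% of all genes, called 4 of the pathway genes lower: Cd274 (-0.79), Sp100 (-0.65), Slfn5 (-0.62) and Ly6e (-0.58).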

How the data were processed

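RNA-seq libraries of aorta were made with NEBNext Ultra kits from 1 µg of total RNA, per the labels' protocols. The authors deposited raw counts for Ensembl genes, with a file for each library; per the submitters' processing notes reads were processed with fastp and STAR 2.6.1d on mm10. The sources used here name neither the counting tool nor the strand setting. Names, coordinates and exon lengths came from GENCODE M21; 37 rows without a name there stayed unnamed. Library totals of 17171652 to 28554356 counts set the precision.

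The 16 untreated and the 10 antisense libraries were fitted apart on all genes passing filterByExpr (15645 and 14981) with edgeR 4.0.16 in R 4.3.3: TMM factors, robust quasi-likelihood fits, two-sided tests and Benjamini-Hochberg adjustment within a comparison, with a threshold of 0.05. Fold changes are log2 ± standard error, and CPM uses TMM-scaled totals. Script steps were tested on simulated data.

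Named members were those called, the 3 smallest p in each comparison, the 3 highest mean CPM and any removed by the count filter; of other lists, up to 4 called genes. Some results are not reported here. Other members are named by library after their values were seen. Members, lists and markers were chosen with earlier results of these data known.

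Alternatives were DESeq2 1.42.0, other scaling factors, no count filter, the compared groups alone, fits without robust estimates, limma-voom 3.58.1, a replicate block, and leaving out each library; leaving out mouse 6 or mouse 2 was added after the values were seen. Ascending and descending libraries share numbers. After group means were removed, all 8 same-numbered pairs correlated across genes at r of 0.162 to 0.305. The descending library of the same number correlated best for 6 of the 8 ascending libraries, not for all. The numbers were taken, from these values and not from a label, to pair the regions of a mouse.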

Additional observations from a re-analysis of the deposited data

Results flagged for a closer look

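A library was set aside for a closer look where its gap to the nearest other library of its group exceeded Dixon's 95% critical value. This was tested in 222 combinations of a member and a group, of which 30 were past it. Chance gives about 1 in 20 for independent, normally distributed values. Members of a library rise and fall together, so these combinations are not independent and no excess can be read from the count.

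Control-ASO library 16 was the highest of its group by this test for 10 members, at 31.7 CPM for Irf7, 6.40 for Dhx58, 62.5 for Ifit1, 64.5 for Ifit2, 13.5 for Isg15, 8.26 for Usp18, 6.47 for Mx1, 5.26 for Mx2, 9.37 for Rsad2 and 19.3 for Cmpk2, and for the chemokine gene Cxcl10, at 21.6 CPM.

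C1041G/+ descending library 6 was the highest of its group for 8 members, at 41.7 CPM for Irf1, 6.73 for Zbp1, 120.0 for Gbp2, 70.3 for Gbp3, 39.3 for Gbp5, 61.2 for Gbp7, 24.1 for Psmb8 and 28.7 for Tap1. C1041G/+ ascending library 6 was the highest for 4 members, at 41.6 CPM for Parp14, 136 for Gbp2, 52.8 for Gbp3 and 56.5 for Gbp7.

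Of the other pathway genes, 9 were picked by hand after their values were seen and put to the same test: Cxcl10, above, and Ifng, Igtp, Iigp1, Irgm2, Gbp4, Tgtp2, Cd274 and Nlrc5. Having been chosen for standing apart, they add no support. In ascending library 6 they read 0.164 CPM for Ifng, 65.9 for Igtp, 80.3 for Iigp1, 64.0 for Irgm2, 26.5 for Tgtp2 and 18.3 for Cd274. In descending library 6 they read 0.267 CPM for Ifng, 63.1 for Igtp, 88.7 for Iigp1, 66.0 for Irgm2, 82.2 for Gbp4, 26.9 for Tgtp2, 17.5 for Cd274 and 16.4 for Nlrc5. Irgm2 was also the lowest of its group in WT ascending library 7, at 19.5 CPM.

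In AGT-ASO library 14, Zbp1 (3.89 CPM) and Gbp2 (57.9 CPM) were the highest of the group. In AGT-ASO library 20, Psmb8 was the lowest, at 4.50 CPM. In WT ascending library 1, Stat2 (25.6 CPM) and Trim30a (17.3 CPM) were the highest, and in WT descending library 1 Oasl2 was, at 11.2 CPM. Mx1 was the lowest in C1041G/+ ascending library 8, at 1.60 CPM, and Ifit2 in C1041G/+ descending library 4, at 32.0 CPM.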

How the results depend on the processing

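Over the alternatives, the members named by rule in each comparison kept their side of the threshold in 317 cases, lost a call in 27 and gained one in 9, and none of these changed sign. Other members did, among them Rsad2 without Control-ASO library 16 and Gbp3 and Gbp7 without mouse 6. Of the counts and medians over the members, 188 stayed within 1.5 times the reported count or within the spread between libraries, and 16 did not. By genotype in the ascending aorta, 0 calls became 1 with DESeq2, and leaving out 1 library gave 0 to 1. By region, the replicate block, which pairs libraries of the same mouse, gave 7 calls in WT in place of 2 and 10 in C1041G/+ aorta in place of 6; leaving out 1 library gave 1 to 4 and 3 to 8, and leaving out mouse 2 gave 2 in C1041G/+ aorta. With the block the number of members called by the interaction remained 0, and a random block with limma-voom called 0 members by genotype. Fewer libraries lower the power of each such fit; other causes were not tested. The median interaction of 0.06 lay between -0.0074 and 0.31 when 1 library was left out, with 0.31 without C1041G/+ descending library 6. With AGT-ASO, 0 calls became 1 (Trim30a) without the count filter, which also let Oas3 into the fit. All genes called by genotype numbered 342 with edgeR and 779 with DESeq2 in the ascending aorta, 189 and 414 in the descending aorta, and 10 and 289 with AGT-ASO. Members under 1 RPKM, such as Oas3 with 1 to 59 counts a library, are limited by depth.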

Other observations

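The members also tended to be low together in some libraries. WT ascending library 7 was the lowest of its group for 26 of 37 members, and for 3570 of all 15645 genes tested; there Ifit3 read 13.7 CPM against 24.6 to 27.3 CPM in the other 3, Ifit3b 2.35 against 6.36 to 8.56 CPM and Mx1 0.192 against 0.883 to 1.44 CPM. C1041G/+ ascending library 8 was the lowest for 21 members and for 3615 of all genes, with Zbp1 at 1.502 CPM against 3.97 to 7.15 CPM, although Ifit3, at 34.4 CPM, was the second highest of the group there. Control-ASO library 8 was the lowest for 20 of 36 members and for 4011 of 14981 genes, with Ifit3 at 28.0 CPM against 51.2 to 89.1 CPM and Ifit3b at 7.64 against 17.03 to 27.5 CPM. At the other end, C1041G/+ descending library 6 was the highest of its group for 28 of 37 members and for 26.3% of all genes, and Control-ASO library 16 for 29 of the 36 tested members and for 20.8% of all genes.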
